A study of Mus musculus with 16 samples.

Results

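The cathepsins are the proteases of lysosomes and endosomes, and the RNA of 10 of their genes was measured with 1-colour Agilent arrays in hypothalami from 16 mice. The genes were Ctsa, Ctsb, Ctsc, Ctsd, Ctse, Ctsf, Ctsh, Ctsl, Ctss and Ctsz, chosen by the gene name that the array gives to each probe. They were covered by 13 probes, out of 55681 probes for 34607 genes on the array. Ctse was included because it rose in these same arrays, so its values are given as a description without a test. The question asked of the other 9 genes was whether any of them shared that rise.

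For the 8 KO chimeras, C57BL/6J recipients were lethally irradiated with 950 Rad and then given whole bone marrow of Adrb1tm1BkkAdrb2tm1Bkk/J mice, which lack the beta-1 and beta-2 adrenergic receptors. The marrow was given once by retro-orbital injection, at a stated ratio of 1 to 4 (knockout to C57BL/6J) that can be read as donors per recipients or as mixed cells. Tissue was taken after a recovery of 2 to 3 months. The 8 control mice carry the same treatment text and the same irradiated recipient strain, but no marrow donor strain, so what they received is not settled by the labels. The mice's ages are not given. Marrow transfer replaces the blood-forming cells, so in such animals the deletions are carried by cells derived from the marrow and not by the recipient's own neurons.

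Adrb1, the beta-1 receptor gene, averaged −1.45 ± 0.22 in KO chimeras and −0.70 ± 0.35 in control mice on 1 probe (SD, n = 8 each; limma adjusted p = 0.0185 over all probes). Its other probe averaged −2.84 ± 0.19 in KO chimeras and −2.83 ± 0.18 in control mice. Of 59305 non-control spots per array, 27276 to 43248 were well above background. The lowest number was that of KO chimera replicate 1 and the highest that of control replicate 8, which shared slide 4 with no other array. The number of arrays limits the precision of every value. All 18 of the 18 hypothalamic marker genes fixed for the tissue, such as Pomc, Agrp, Avp and Hcrt, were measured, and 0 of them passed the threshold between the groups in limma (4 were higher and 0 lower at an unadjusted p under 0.05, where 8.54% of all genes in the fit were higher and 12.1% lower).

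Cathepsins are made as inactive precursors, are carried to the lysosome mostly on mannose 6-phosphate receptors, and are activated by cleavage in an acid compartment. Most are cysteine proteases (Ctsb, Ctsc, Ctsf, Ctsh, Ctsl, Ctss and Ctsz), Ctsd and Ctse are aspartic proteases, and Ctsa is a serine carboxypeptidase. In brain, Ctsd and Ctsb are found in neurons and glia alike, whereas Ctss is typical of microglia and other myeloid cells. Ctse, cathepsin E, is an intracellular aspartic protease known from gastric epithelium, the red cell lineage and cells that present antigen.

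The Ctse result rests on 1 probe, and Ctsa, Ctsc and Ctsd each have a pair of probes that can be set against each other. The first 30 bases of each of these 60-base probes are shown for that reason, as the files give them, 5′ to 3′. The positions are in mm9. No capitals are used, since no base within them was singled out.
Ctse, probe A_55_P1997126, chr1:133571990-133572049, plus strand: gacctgtttttacagttggtttatttgtat
Ctsa, probe A_55_P1955841, chr2:164665023-164665082, plus strand: gggtggatggattctaattgatggttgact
Ctsa, probe A_52_P672803, chr2:164666433-164666492, plus strand: gcggctaggtaaataagtatggttttatct
Ctsc, probe A_52_P195839, chr7:95458436-95458495, plus strand: cgggtctttatcactcacagagtgatttag
Ctsc, probe A_55_P2072005, chr7:95435428-95435487, plus strand: ttgttcatgcagctgggaactgtgggaatg
Ctsd, probe A_51_P384629, chr7:149561962-149562021, minus strand: gaaggagcaagaggacagaagcaaaactat
Ctsd, probe A_65_P13209, chr7:149566847-149568505, minus strand: actgtatcggttccatgtaagtctgaccag
The span given for the last of these is longer than the probe, so its bases come from separate stretches of the genome. The other probes lie at chr14:63761906-63761965 (Ctsb), chr19:4860454-4860513 (Ctsf), chr9:89970828-89970887 (Ctsh), chr13:64465287-64465346 (Ctsl), chr3:95360245-95360304 (Ctss) and chr2:174253228-174253287 (Ctsz). The files place the Ctse probe at base 2025 of its transcript. Whether a probe lies in an exon or a UTR was not analysed here.

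Ctse was higher in every KO chimera than in any control mouse. By size its difference ranked 1 of the 35140 probes in the fit, which kept a probe if 8 or more of the 16 arrays had it well above background. Ctse met that limit almost wholly through the KO chimeras, and the rank was 6 with normexp background correction and 2 both in the deposited value table and with a floor. A level here is log2 of the scanner's processed intensity minus the 75th percentile of its array, so 0 is the level that 75% of the spots lie below. In KO chimera replicates 1 to 8 the level of Ctse was −3.80, −2.95, −3.33, −2.93, −2.93, −2.91, −2.52 and −3.05. In control replicates 1 to 8 it was −5.69, −6.46, −7.46, −6.73, −6.87, −6.31, −7.27 and −4.93. The groups did not overlap: the lowest KO chimera, replicate 1, lay above the highest control mouse, replicate 8. Before scaling, the processed intensity was 15.2 in that KO chimera and 13.8 in that control mouse, and only the latter was well above background. Most of their distance thus comes from the scaling, since their arrays had 75th percentiles of 7.73 and 8.71 (log2). The means were −3.05 ± 0.37 in KO chimeras and −6.46 ± 0.83 in control mice (SD, n = 8 each), a difference of 3.41 (SE 0.30), or 10.6-fold. The spread was wider in the control mice. Over all probes in the fit, 0.125% were higher in KO chimeras without overlap and 0.714% lower without overlap. Ctse was chosen for its rise, so nothing is read for it from its rank or from these shares.

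The control level of Ctse is close to the array's background, so the 10.6-fold is uncertain on that side. The probe was well above background on 7 of 8 KO chimera arrays, all but replicate 1, and on 1 of 8 control arrays, that of replicate 8. The unscaled mean spot intensity was 39.6 to 80.8 in KO chimeras (median 74.8), against 14.8 to 32.6 in control mice (median 22.8). The local background around the spot was 18 to 27 in KO chimeras and 21 to 29 in control mice. The spot exceeded the 99th percentile of the 308 negative-control spots of its own array on 7 of 8 KO chimera arrays and on 2 of 8 control arrays (replicates 1 and 8). The scanner had replaced the background-subtracted signal by a surrogate value on 0 KO chimera arrays and on 5 control arrays. The direction is therefore visible in the raw spots, while the distance between the groups depends on how low signals are treated. With normexp background correction the difference was 0.75, it was 2.74 in the authors' deposited value table, and with a floor at the lowest signal above background it was 1.87.

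**Figure D1:**
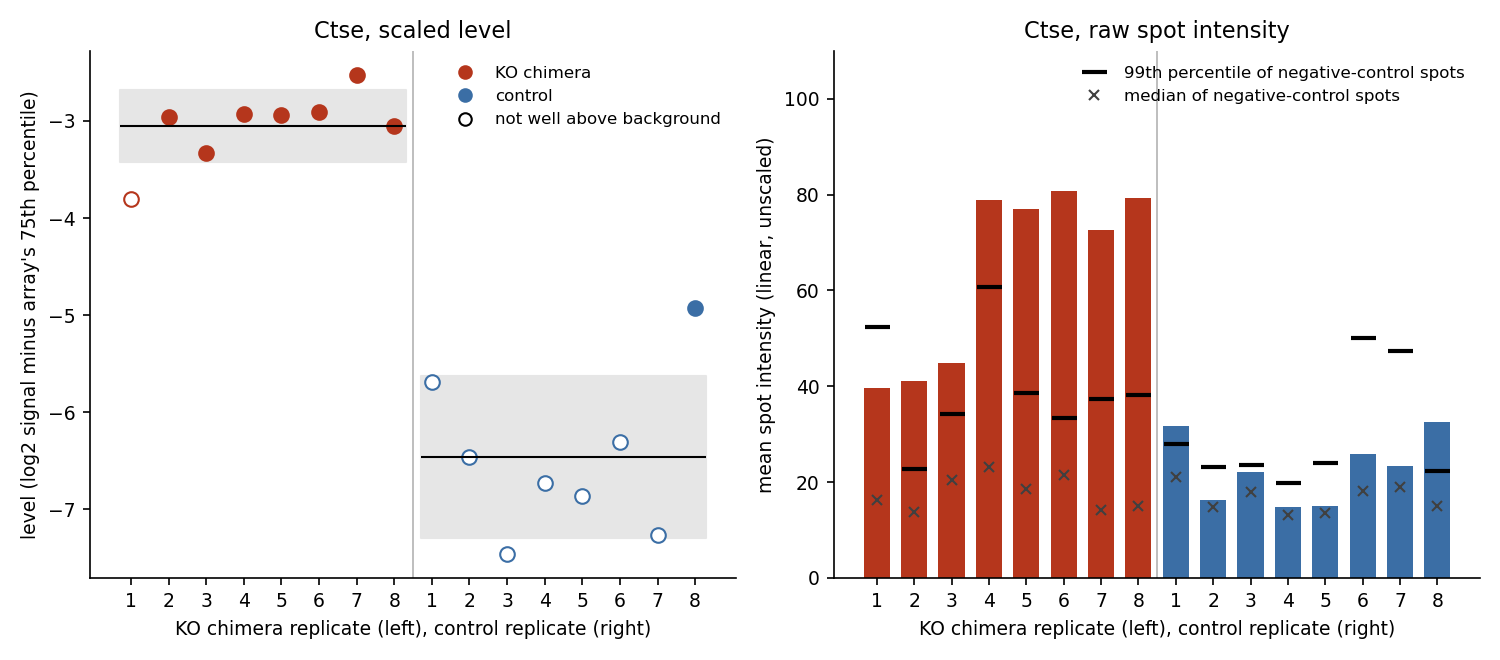
Left, the level of Ctse on each array (log2 processed intensity minus the array's 75th percentile), with 8 KO chimeras to the left of 8 control mice; lines are means, grey bands 1 SD, and open points are spots not well above background. Right, the unscaled mean spot intensity as bars, with the median and the 99th percentile of each array's negative-control spots. KO chimera bars reach 39.6 to 80.8 and control bars 14.8 to 32.6, and most control bars lie near the negative controls.

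Slide and scan day did not separate the groups, and the rise was present within each. Both groups were present on 5 of the 6 slides and on both scan days, with 4 mice of each group per day. Within slides 1, 3, 4, 5 and 6 Ctse was higher in KO chimeras by 2.57, 4.08, 1.13, 4.34 and 3.59. Within the scan days it was higher by 3.16 and 3.66. The smallest of these values, on slide 4, sets KO chimera replicate 1 alone against control replicate 8 alone, the mice with the fewest and the most spots above background. Leaving out any 1 mouse gave 3.27 to 3.63, and without slide 4 the difference was 3.74.

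None of the other 9 cathepsins was higher in KO chimeras by the test. They had 12 probes, 11 of which were in the fit, and in limma 0 passed an adjusted p of 0.05 as higher and 0 as lower. Over all 35140 probes, 0.794% were called higher and 1.79% lower. At an unadjusted p under 0.05, 0 were higher and 5 lower (Ctsa, Ctsb, Ctsc, Ctsl and Ctss), where 9.7% of all probes were higher and 10.3% lower. An exact permutation test, two-sided and unadjusted, with each of the 12870 ways to assign the mice, gave p under 0.05 for 4 of the 11. It was run for cathepsin probes only, so this count has no share over all probes to be read against. Of the 11 differences 10 were negative, with a median of −0.16, where the median over all probes was 0.02 and 46.1% were negative. The median was −0.10 without control replicate 8 and −0.07 without slide 4. The count depends on the scaling: it was 7 of 11 with quantile normalization and 8 of 11 both in the authors' deposited value table and with the percentile taken over bright probes. None of the 11 probes separated the groups without overlap. Among these 11 the highest upper 95% bound of a difference was that of Ctsz, at 0.23 or 1.17-fold. The difference of Ctse in the same scaling was 3.41, but it was 0.75 with normexp background correction. No bound was computed for the dim Ctsc probe A_55_P2072005, which was not in the fit and had a difference of 1.04. Since the tissue was measured in bulk, fewer cells of a type and less RNA per cell cannot be told apart in any of these values.

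**Figure D2:**
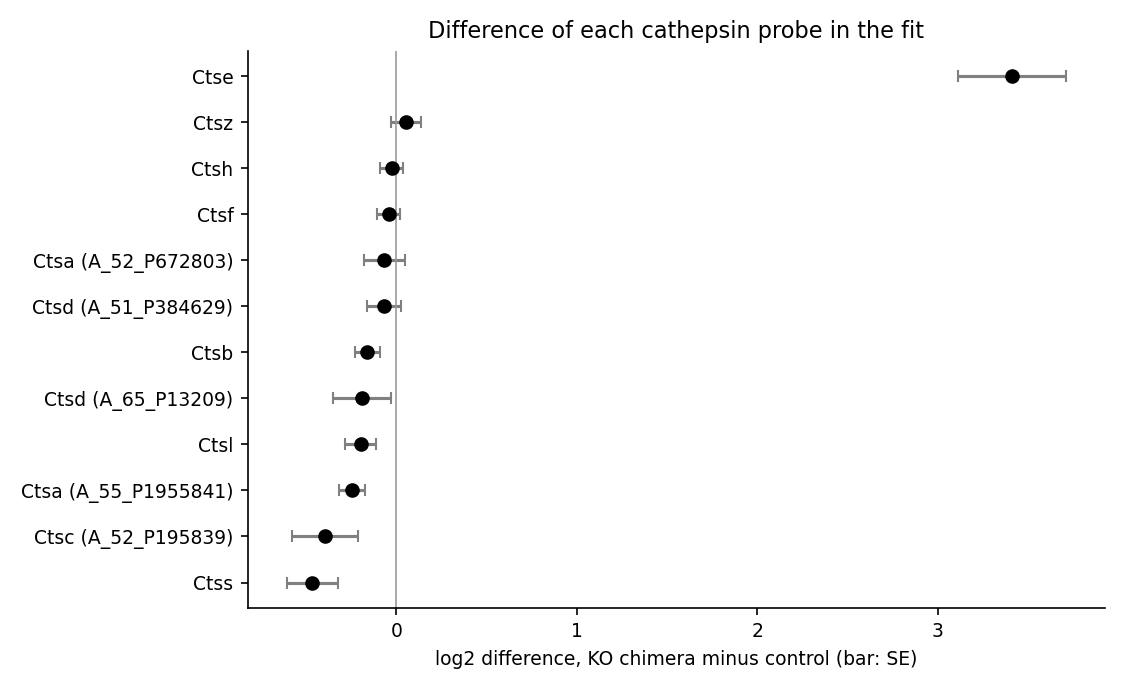
Difference between the means of 8 KO chimeras and 8 control mice for each cathepsin probe in the fit, on the log2 scale, with bars of 1 SE. Ctse lies at 3.41, and the other 11 probes lie between −0.46 and 0.05.

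Among the aspartic proteases, Ctsd, the main aspartic protease of the lysosome and the closest relative of Ctse here in enzyme class, had no probe past the threshold. Probe A_51_P384629 had a lowest, median and highest level of 4.35, 4.70 and 4.76 in KO chimeras, against 4.30, 4.74 and 5.10 in control mice. The difference was −0.07 (SE 0.10, limma adjusted p = 0.724). The KO chimeras lay entirely within the range of the control mice. Probe A_65_P13209 ranged over 0.36, 0.74 and 1.38 in KO chimeras and over 0.53, 0.95 and 1.62 in control mice, with a difference of −0.19 (SE 0.16, adjusted p = 0.534). Its sign varied between slides, from −1.26 on slide 4 to 0.30, and without slide 4 the difference was −0.04.

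Ctsa, the carboxypeptidase that also protects beta-galactosidase and neuraminidase in the lysosome, had the lowest adjusted p of the 11, on 1 of its 2 probes. Probe A_55_P1955841 had a lowest, median and highest level of 3.90, 4.08 and 4.21 in KO chimeras and of 4.17, 4.24 and 4.61 in control mice. All 8 KO chimeras lay below the control median and 6 below the lowest control mouse. The difference was −0.24 (SE 0.07), with a limma adjusted p of 0.0756 and an unadjusted exact permutation p of 0.00124. It had the same sign within all 5 slides, from −0.38 to −0.13. It passed the threshold in 2 alternatives, with an adjusted p of 0.0486 where only probes well above background on all arrays were tested and of 0.0418 with the trend and robust settings. The second probe, A_52_P672803, gave −0.07 (SE 0.11, adjusted p = 0.779), with levels of −2.25, −1.90 and −1.72 in KO chimeras and of −2.24, −1.89 and −1.48 in control mice. The probes of this gene therefore gave different sizes, and the groups overlapped on both.

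Of the cysteine proteases, Ctss, which trims the invariant chain in antigen-presenting cells and is abundant in microglia, had the largest negative difference. Its level was 2.39, 3.05 and 3.39 (lowest, median and highest) in KO chimeras, against 3.07, 3.53 and 3.77 in control mice. All 8 KO chimeras lay below the control median, 4 of them below the lowest control mouse. The difference was −0.46 (SE 0.14, limma adjusted p = 0.0800, unadjusted exact permutation p = 0.00668), that is 1.38-fold lower, and it did not pass in any alternative at the 0.05 threshold (lowest adjusted p 0.0510). Within the 5 slides it ran from −0.94 to −0.37. Ctss and Ctsl were the pair of cathepsins with the highest correlation over the 8 KO chimeras (r = 0.90, a description that shares arrays and includes the low KO chimera replicate 1).

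Ctsc, the dipeptidyl peptidase that activates the serine proteases of immune cell granules, differed between its probes. Probe A_52_P195839 was well above background on 7 of 8 KO chimera and 8 of 8 control arrays. Its level was −2.71, −2.31 and −1.95 in KO chimeras and −2.58, −1.80 and −1.29 in control mice, with a difference of −0.39 (SE 0.18, adjusted p = 0.245) that was −0.25 without slide 4. Probe A_55_P2072005 was well above background on 1 of 8 KO chimera and 0 of 8 control arrays and was not in the fit. Without a filter on dim probes its difference was 1.04 (limma adjusted p = 0.281). It had levels of −7.39, −6.04 and −3.11 in KO chimeras and of −7.39, −6.70 and −5.95 in control mice. It was higher in KO chimeras within all 5 slides, by 0.22 to 2.98, and within both scan days. Its highest value, on KO chimera replicate 1, was not well above background on that array.

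Ctsl and Ctsb, the general endopeptidases of the lysosome, were each slightly below the control mice. Ctsl had levels of 3.53, 4.00 and 4.14 in KO chimeras and of 4.00, 4.08 and 4.39 in control mice, a difference of −0.20 (SE 0.09, limma adjusted p = 0.214). Ctsb had levels of 5.41, 5.58 and 5.76 in KO chimeras and of 5.52, 5.75 and 5.96 in control mice, a difference of −0.16 (SE 0.07, adjusted p = 0.204). The exact permutation test gave unadjusted p = 0.0244 for Ctsl and p = 0.0233 for Ctsb, and both were negative within all 5 slides. For both genes the groups overlapped and the test over all probes was not passed.

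The remaining 3 cysteine proteases gave the smallest differences. Ctsf, which like Ctss can degrade the invariant chain in macrophages, differed by −0.04 (SE 0.06, adjusted p = 0.756), with levels of 1.38 to 1.62 in KO chimeras and 1.39 to 1.84 in control mice. Ctsh, an aminopeptidase, differed by −0.03 (SE 0.06, adjusted p = 0.845), with 1.05 to 1.42 in KO chimeras and 1.14 to 1.38 in control mice. Ctsz, a carboxypeptidase also called cathepsin X, was the 1 probe in the fit, apart from Ctse, with a positive difference, of 0.05 (SE 0.08, adjusted p = 0.765), with 1.71 to 2.09 in KO chimeras and 1.48 to 2.14 in control mice. The signs of Ctsf and Ctsh turned positive under quantile normalization, in the deposited value table and with the percentile over bright probes. The 95% interval was −0.16 to 0.08 for Ctsf, −0.14 to 0.09 for Ctsh and −0.12 to 0.23 for Ctsz.

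**Figure D3:**
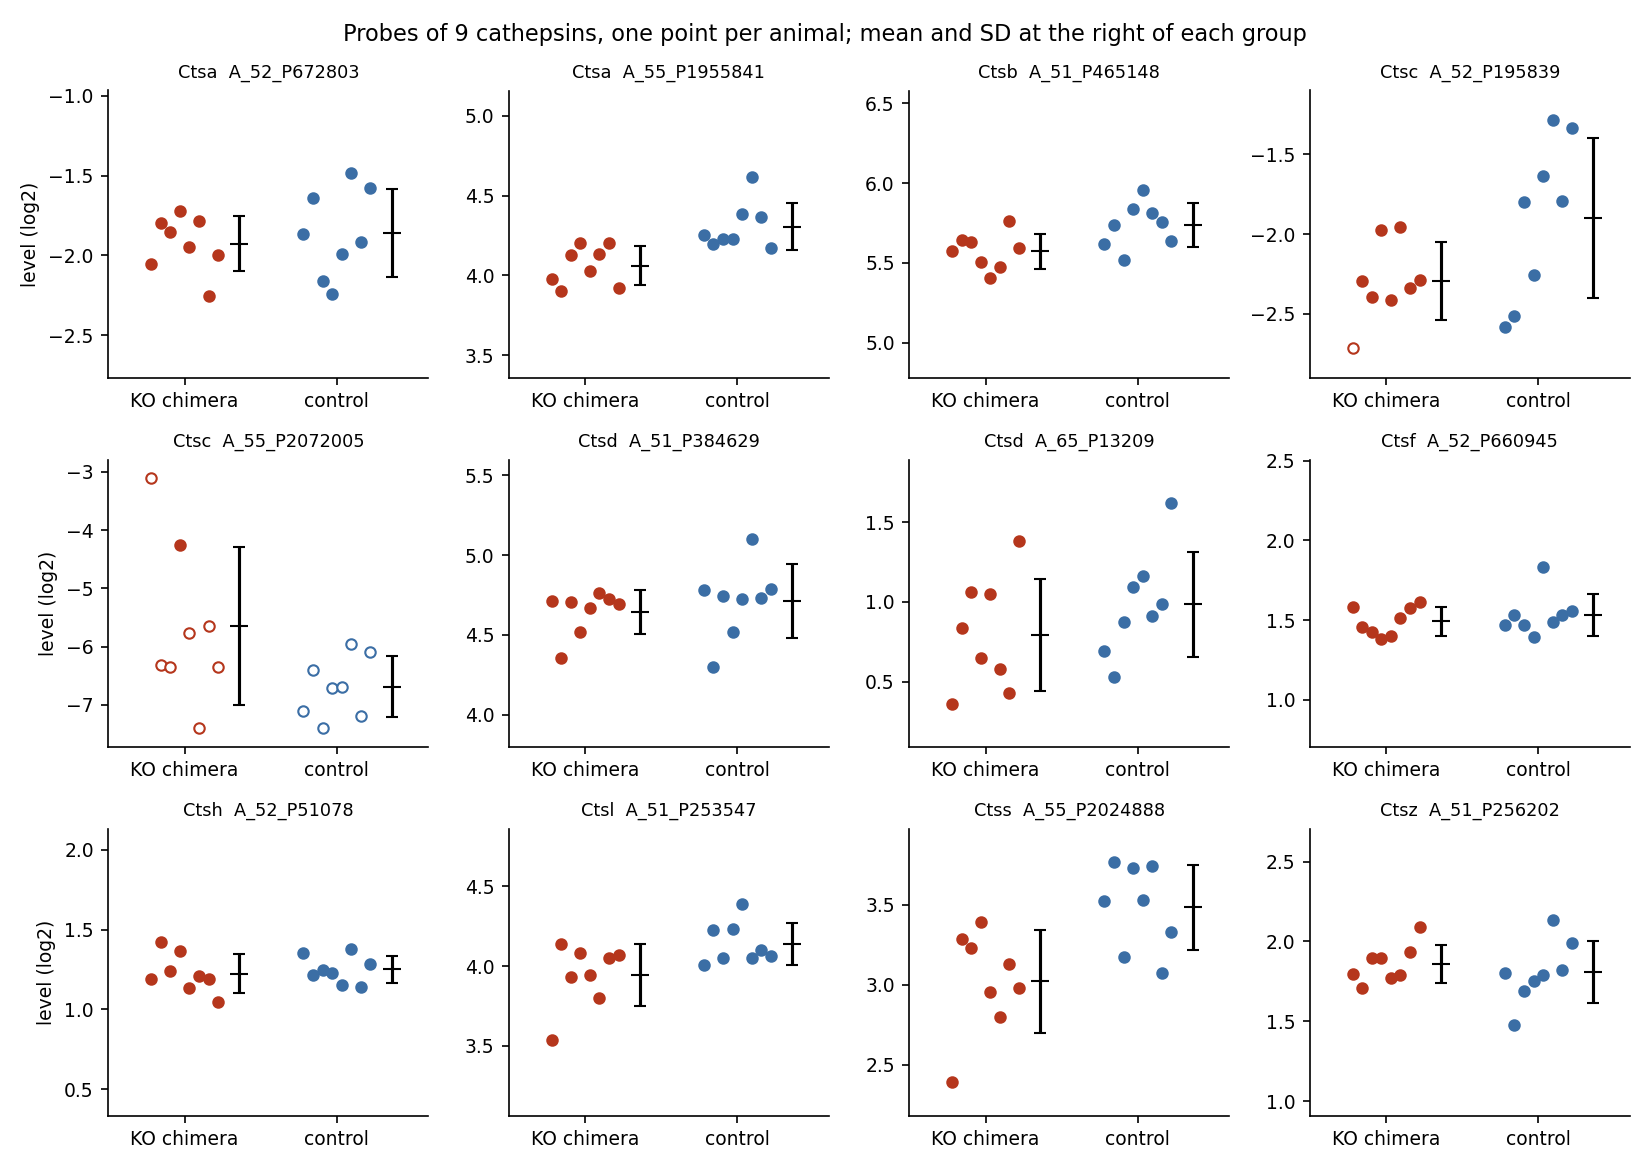
Level of the 12 probes of the other 9 cathepsins on each array (log2 processed intensity minus the array's 75th percentile), KO chimeras left and control mice right; open points were not well above background, and the mean with 1 SD stands right of each group. Each panel has its own vertical range. The groups overlap in every panel.

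**Figure D4:**
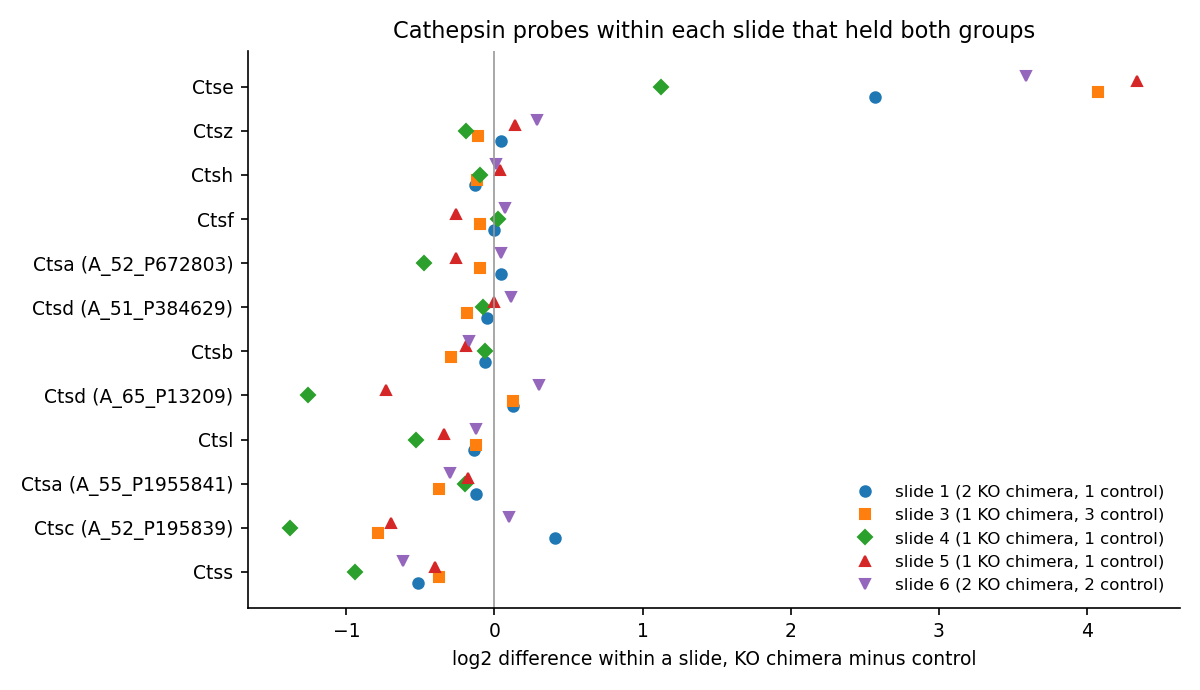
Difference between KO chimeras and control mice within each of the 5 slides that held both, for the 12 cathepsin probes in the fit (log2 scale). Ctse lies at 1.13 or above on every slide. Both Ctsd probes, Ctsc, Ctsf, Ctsh, Ctsz and Ctsa (A_52_P672803) lie on both sides of 0. Ctsa (A_55_P1955841), Ctsb, Ctsl and Ctss lie below 0 on every slide.

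None of the other cathepsins was among the genes most like Ctse from mouse to mouse. Likeness was measured as the mean of the Pearson correlations with Ctse over the 8 KO chimeras and over the 8 control mice, taken separately, among 16834 genes with a symbol. The most alike were Ccpg1 (0.86), Lgals9 (0.84), Ccdc166 (0.81), Efcab3 (0.81) and Gas7 (0.80). None of these 5 passed the test between the groups, with differences of −0.14 to 0.11. Of the other cathepsins Ctss stood highest, at rank 1347 with 0.43. Over the 8 KO chimeras alone, r with Ctse was 0.74 for Ctsl, 0.62 for Ctsc and 0.60 for Ctss. Over the 8 control mice it was −0.31, 0.08 and 0.25 for the same genes. In KO chimeras Ctsd (−0.14) and Ctsf (−0.13) were negative. The correlations share arrays, and those over control mice rest on Ctse values near background, so they are a description only.

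Among the genes that surround the cathepsins, lists of 103 genes were drawn up by role and 88 of them were measured in a fit with 1 probe per gene. In limma 0 of the 88 were higher and 5 lower in KO chimeras, against 1.03% of all 24360 genes higher and 2.77% lower. At an unadjusted p under 0.05, 4 were higher and 15 lower, to be read against the 8.54% and 12.1% of all genes. Taking the 75th percentile over bright probes changed the split of calls over all genes, with 64.2% of the calls higher in place of 27.0%. In the lists 1 gene was then higher (Lipa, the lysosomal acid lipase, at 0.19, named after its value was seen) and 3 lower (Acp5, Sort1 and Gnptab). Of the 5 genes, 2 came from sorting (Sort1 and Gnptab) and 3 from the hydrolases, among them Acp5 and Ids.

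Of the 15 genes that sort and activate cathepsins, all measured, 2 fell and 0 rose, with a list median of −0.05 against 0.00 over all genes. Gnptab, a subunit of the phosphotransferase that makes the mannose 6-phosphate mark, had levels of 1.32, 1.40 and 1.57 in KO chimeras and of 1.59, 1.73 and 1.83 in control mice, without overlap. It fell by 0.32 (SE 0.05, limma adjusted p = 0.00662). Sort1, sortilin, a sorting receptor for lysosomal proteins, had levels of 1.96, 2.22 and 2.28 in KO chimeras and of 2.52, 2.65 and 3.00 in control mice, also without overlap. It fell by 0.52 (SE 0.08, adjusted p = 0.00542) on the probe tested, but its other probes gave −0.17 and 0.13 and did not pass. The mean of its probes, −0.19, did not pass either. The receptors of the mark itself were not lower by the test: M6pr differed by 0.00 (adjusted p = 0.983) and Igf2r by −0.06 (adjusted p = 0.569).

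Of the 27 hydrolases that share the lysosome with the cathepsins, all measured, 3 fell and 0 rose, with a median of −0.04. Acp5, the tartrate-resistant acid phosphatase of macrophages and osteoclasts, had levels of −2.22, −2.06 and −1.56 in KO chimeras and of −1.97, −0.96 and −0.29 in control mice. It fell by 0.97 (SE 0.19, adjusted p = 0.0157), and its other probe by 1.16 (adjusted p = 0.0207 over all probes), with overlap on both. Ids, the iduronate sulfatase, fell by 0.30 (SE 0.07, adjusted p = 0.0256) without overlap, with levels of 2.54, 2.80 and 2.95 in KO chimeras and 2.98, 3.10 and 3.31 in control mice. It passed in 24 of 32 alternatives and did not pass without KO chimera replicate 6 (adjusted p = 0.0518). Acp5 did not pass with slide as a fixed block (adjusted p = 0.0517), and within a single scan day, with 4 mice a group, none of these 4 sorting and hydrolase genes (Sort1, Gnptab, Acp5 and Ids) passed.

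The other lists had 0 calls in either direction in limma. Of the lysosomal membrane, acidification and regulator genes 21 of 22 were measured, with a median of −0.13 against 0.00 over all genes. Their differences were negative for 19, where 12172 of all 24360 genes were negative and 12188 positive. At an unadjusted p under 0.05, 6 were lower and 0 higher, where 12.1% of all genes were lower. The median and the signs can shift with the scaling. With the percentile taken over bright probes the median over all genes was 0.06, and the signs in this list were not counted there. The smallest p in that list belonged to Tfe3, a transcription factor of lysosomal genes, at −0.22 (SE 0.06, adjusted p = 0.0580), followed by Lamp1 at −0.17 (adjusted p = 0.118) and Atp6ap2 at −0.26 (adjusted p = 0.121). Of the antigen processing genes for MHC class II 9 of 10 were measured, with a median of 0.46 and 8 positive differences. Unadjusted, 1 was higher and 0 lower, where 8.54% of all genes were higher. H2-Ab1, a class II chain, averaged 0.37 ± 0.35 in KO chimeras and −0.24 ± 0.77 in control mice (SD, n = 8 each), a difference of 0.61 (SE 0.28, adjusted p = 0.224). H2-Eb1 differed by 0.57 (adjusted p = 0.278) and Ifi30, a lysosomal thiol reductase, by 0.16 (adjusted p = 0.334). The spread of these class II genes between control mice was as large as their differences.

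Of the 13 cathepsin-named genes outside the 10, 5 were measured and 8 did not reach the fit. Ctsg, a serine protease of neutrophil granules that Ctsc activates, differed by 0.42 (SE 0.19, limma adjusted p = 0.226) and Cts7 by 0.42 (adjusted p = 0.403). Ctsk, the bone-degrading cysteine protease, differed by −0.18 (adjusted p = 0.317). Unadjusted, 1 of the 5 was higher and 0 lower, where 8.54% of all genes were higher and 12.1% lower. Of the other aspartic proteases 4 of 6 were measured and 0 had an unadjusted p under 0.05, with Ren1 at 0.25 (adjusted p = 0.391), Bace1 at −0.03 (adjusted p = 0.834) and Pgc at 0.05 (adjusted p = 0.899). Of the cathepsin inhibitors 7 of 10 were measured and 0 had an unadjusted p under 0.05, with Serpinb6a at −0.11 (adjusted p = 0.311), Stfa3 at 0.37 (adjusted p = 0.498) and Cstb at −0.07 (adjusted p = 0.639). No other aspartic protease or inhibitor that was measured was called, where 1.03% of all genes were called higher and 2.77% lower. With so few genes nothing is read from that.

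**Figure D5:**
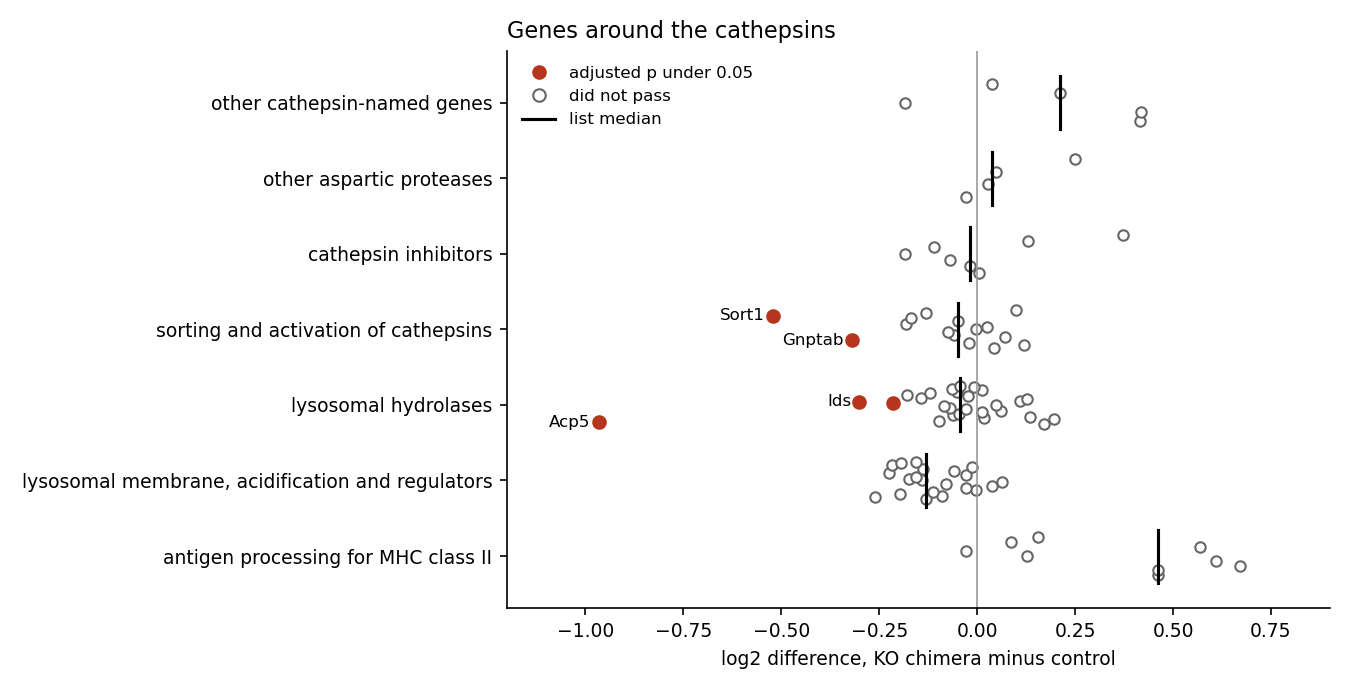
Difference between KO chimeras and control mice for each measured gene of the 7 lists around the cathepsins (log2 scale), with the list median as a bar. Filled points are the 5 genes with an adjusted p under 0.05, all of them lower in KO chimeras and 4 of them labelled, and open points did not pass.

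Markers of cells that carry cathepsins were measured beside them, and their part in the values above was not tested. A summed level is log2 of the sum of a list's levels on the linear scale. Of the microglial markers 15 of 15 were measured, 0 higher and 2 lower (Trem2 at −0.42 and C1qc at −0.36), where 2.77% of all genes were called lower. At an unadjusted p under 0.05, 7 were lower and 0 higher, where 12.1% of all genes were lower. The list had a median of −0.21 and summed levels of 7.75 to 8.29 in KO chimeras against 7.62 to 8.10 in control mice. The sum is carried by the signals of Siglech and Itgam, the only 2 of the 15 with a positive difference (0.11 and 0.12), whereas the other 13 were negative. Border macrophages gave 6 of 8 with 0 calls, and sums of 0.33 to 0.85 in KO chimeras against −0.50 to 2.00 in control mice (1 lower unadjusted), with Cd163 above background on no array. Ctss, Ctsc and Acp5 are also known from such cells. Of the monocyte and dendritic cell markers 3 of 8 were measured. Itgax was well above background on 1 of 8 KO chimera and 7 of 8 control arrays, so it met the filter almost wholly through the control mice. It was called lower, where 2.77% of all genes were. Nothing is read from that call, and the size of its difference is not given. The sums ran from −0.60 to −0.16 in KO chimeras and from −0.63 to −0.10 in control mice, and Ccr2, Xcr1 and Clec9a were above background on no array.

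The red cell lineage, from which Ctse is known, and other blood cells were measured as follows. Red cell lineage markers gave 5 of 8, 0 higher and 1 lower (Hbb-b2 at −0.58), where 2.77% of all genes were called lower. Unadjusted, 3 were lower and 0 higher, where 12.1% of all genes were lower. Their sums were 3.76 to 4.50 in KO chimeras against 4.13 to 4.82 in control mice. Neutrophil markers gave 6 of 8 with 0 calls (0 unadjusted), with sums of 6.95 to 7.70 in KO chimeras and 6.72 to 7.35 in control mice. Lymphocyte markers gave 5 of 10 with 0 calls (1 lower unadjusted), with sums of 3.61 to 4.20 in KO chimeras and 3.79 to 4.29 in control mice, and Cd3d and Ms4a1 were above background on no array. No blood or immune list had a gene called higher, where 1.03% of all genes were. Lists this short would seldom hold a call at that share, so nothing is read from its absence.

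Markers of oligodendrocytes and of the neighbouring thalamus included genes called lower in KO chimeras. Over all genes 1.03% were called higher and 2.77% lower, and 12.1% were lower unadjusted. Oligodendrocyte markers gave 11 of 11 measured, 0 higher and 4 lower (6 lower unadjusted). Their median was −0.36, and Mbp (0.07) and Ermn (0.09) had positive differences. Their sums were 7.51 to 8.40 in KO chimeras against 7.89 to 8.48 in control mice. Thalamic markers gave 10 of 10, 0 higher and 2 lower (5 lower unadjusted), with a median of −0.72. Their sums were 4.75 to 5.59 in KO chimeras against 5.11 to 6.80 in control mice. The lower sorting and hydrolase genes moved with these lists, and their part in that was not tested.

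Promoters of 7 of the 10 genes were at hand (RefSeq, GRCm38.p6, 250 bases before to 50 after the start of transcription), and Ctsb, Ctse and Ctsh were not among them. The motif CACGTG, the core of the element through which Tfeb and Tfe3 bind lysosomal genes, reads the same on both strands and was found in 4 of the 8 promoters of these 7 genes and in 7.15% of all 32851 promoters. The 30 bases around each match are shown with the motif in capitals, since they show which cathepsins carry it.
Ctsa, chr2:164833749-164833778: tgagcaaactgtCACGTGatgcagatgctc
Ctsa, chr2:164833766-164833795: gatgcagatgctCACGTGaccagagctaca
Ctsd, chr7:142388048-142388077: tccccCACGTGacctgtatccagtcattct
Ctsd, chr7:142387908-142387937: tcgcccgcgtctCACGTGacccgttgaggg
Ctsl, chr13:64370739-64370768: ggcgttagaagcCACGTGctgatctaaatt
Ctsf, chr19:4855074-4855103: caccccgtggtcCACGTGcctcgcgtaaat
Ctsa and Ctsf are on the plus strand and Ctsd and Ctsl on the minus strand. The genes with a match had differences of −0.24 to −0.04 and those without one, Ctsc, Ctss and Ctsz, of −0.46 to 0.05, so the ranges overlapped. A match is a description of these letters and not of binding.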

How the data were processed

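RNA of 16 hypothalami, 1 mouse per array, was labelled with Cy3. The authors deposited a linear, background-subtracted intensity for every spot, per the file headers; the submitters' processing notes name Agilent Feature Extraction 10.7. A second deposited table holds log2 values and served as an alternative; it followed the scanner's log2 values (r at least 0.9996), was not centred per gene, and has a floor of 2.2 (22.3% of values), and medians per array run between 5.21 and 5.26. How its arrays were aligned is not stated. Groups came from the titles, except for 1 KO chimera whose title is spelled with a zero and whose group came from the source name. Whether mice shared litters or cages is not stated.

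Control spots and spots marked as outliers were left out, log2 was taken, the array's 75th percentile subtracted and spots of a probe averaged. A probe entered the fit if 8 or more arrays had it well above background. The fit was limma's (3.58.1, in R 4.3.3; lmFit, then eBayes), two-sided, with Benjamini-Hochberg adjustment at 0.05 over all 35140 probes, and for lists over 24360 genes, each by its brightest probe. Single differences were also tested exactly. The scripts were tested on simulated data. Differences are KO chimera minus control.

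The members, lists and tests were chosen with earlier results of these data known. Named were every cathepsin probe, up to 3 members of each pathway list with the smallest p, the 5 genes most like Ctse, and neighbours within 1000000 bases that passed or had the 3 smallest p; M6pr, Igf2r, Adrb1 and the markers named were added after their values were seen. A few gene results were omitted here. Alternatives covered normalization, background, the deposited table, filters, slide, scan day, replicate number, eBayes settings, threshold and each mouse left out. Python 3.11.15 and matplotlib 3.10.9 drew the figures.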

Additional observations from a re-analysis of the deposited data

Results flagged for a closer look

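Each cathepsin probe was examined for a mouse that stands apart from its own group of 8, which made 26 groups, and 1 value stood out. Ctsf, probe A_52_P660945, measured 1.84 in control replicate 5, whereas the other 7 control mice lay between 1.39 and 1.55 and the 8 KO chimeras between 1.38 and 1.62. The gap to the nearest mouse was 0.636 of the group's range, above Dixon's 95% limit, which chance alone passes in about 1 of 20 groups. Without this mouse the difference between KO chimeras and control mice was 0.00 in place of −0.04.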

How the results depend on the processing

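The rise of Ctse kept its direction in all 30 alternatives run for it, and 27 stayed within 1 SD between mice (0.65) of 3.41. The others were normexp background correction (0.75), the deposited value table (2.74) and a floor (1.87); the floor and the normexp offset of 50 raise low signals by construction. Ctse has no value where probes had to be above background on all arrays. Of the other cathepsins, 0 passed with any 1 mouse left out (0 to 0). Where only probes above background on all arrays were tested 1 passed, as did 1 with trend and robust settings. At a threshold of 0.1, 2 passed. The exact test without adjustment gave 4, and it was not run over all probes. In the other alternatives 0 passed. Over all genes (925), probes (908) and list members (5) the calls were 527, 522 and 3 with quantile normalization, 255, 209 and 3 with normexp, and 535, 551 and 3 in the deposited table. Without a filter 594 genes and 459 probes passed, and with slide as a fixed block 477 genes and 251 probes. More probes passed above background on all arrays (1517), with slide as a random block (1444) and with trend and robust settings (1471); at a threshold of 0.1, 2019 genes and 2518 probes did. Within scan day 1, with 4 mice a group, 0 genes, 0 probes and 0 list members passed in limma (2842 genes and 3790 probes unadjusted), and within day 2, 7 genes, 0 probes and 0 list members (3435 and 4819). Leaving out 1 mouse gave 361 to 1028 genes, 268 to 1119 probes and 3 to 6 list members, lowest for genes and probes without control replicate 5 (361 and 268) and for list members without KO chimera replicate 6 (3). The cause of the other shifts was not tested. Replicate numbers did not pair the mice: same-numbered mice correlated at −0.08 to 0.24, over 0.1 in 3 of 8 pairs, and with a replicate block 791 genes, 698 probes, 3 list members and 0 other cathepsins passed, and Ctse differed by 3.41. Leaving out slide 4, an alternative chosen after seeing the data, brought the median of the other cathepsins to −0.07.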

Other observations

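The genes that lie beside Ctse on chromosome 1 were read in the same arrays. Within 1000000 bases of its probe in mm9, 39 genes were measured, of which 0 were higher and 2 lower in KO chimeras in limma (0 higher and 5 lower unadjusted), with a median difference of −0.02. Over all genes 2.77% were called lower, and 12.1% were lower unadjusted. Rab7b, a small GTPase of late endosomes, has the probe at chr1:133609965-133610024, 37975 bases from that of Ctse. It had levels of −4.93, −4.27 and −3.68 (lowest, median and highest) in KO chimeras and of −3.89, −3.54 and −2.85 in control mice, and was well above background on 5 of 8 KO chimera and 8 of 8 control arrays. It fell by 0.82 (SE 0.18, limma adjusted p = 0.0216), so the neighbour nearest among those called moved opposite to Ctse. Rassf5, a Ras effector, at chr1:133073042-133073101, had levels of 1.87, 2.01 and 2.09 in KO chimeras and of 2.09, 2.31 and 2.43 in control mice, and fell by 0.29 (SE 0.06, adjusted p = 0.0148). Cdk18, a kinase, differed by −0.18 (SE 0.05, adjusted p = 0.0741). The largest positive difference among the 39 was 0.35, and it did not pass the test.

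Over the 45 pairs of the 10 genes the median Pearson correlation was 0.15 among the 8 KO chimeras and 0.17 among the 8 control mice, and 6 pairs in KO chimeras and 12 in control mice were over 0.5. In KO chimeras the pairs ran from −0.80 (Ctsd with Ctsh) to 0.90 (Ctsl with Ctss), and in control mice from −0.67 to 0.90 (Ctsd with Ctsz). With 8 arrays each and shared scaling these are descriptions only.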
